A study of Mus musculus with 18 samples.

Results

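Epidermis of AhR knockout mice was compared with that of wild-type littermates 24 h after tape stripping. The comparison holds 6 arrays of the 18 in the study: the 3 labelled as stripped AhR-/- skin at 24 h (KO) and the 3 labelled as stripped AhR+/+ skin at 24 h (WT). The KO animals are of the line B6.129-AhRtm1Bra/J, in which AhR is inactivated in every cell of the body rather than in keratinocytes alone. All animals were female, on a background given as B6;129, and their age is not given in the labels. Shaved back skin was stripped 5 times with Tegaderm film, and RNA was taken from epidermal sheets. The other 12 arrays are KO and WT skin before stripping (0 h) and at 6 h, 3 arrays in each group. The labels' protocol also names mice that lack AhR only in keratinocytes or in Langerhans cells, but none of the 18 arrays is labelled so.

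AhR is a ligand-activated transcription factor of the bHLH-PAS family that pairs with ARNT and binds DNA at sites with the core GCGTG. In skin it is active in keratinocytes, Langerhans cells and the gamma-delta T cells that live among keratinocytes, and mice without it are known to lose most of these T cells. Tape stripping pulls off the cornified layer, and keratinocytes answer with stress keratins, small proline-rich proteins, alarmins and cytokines, followed by proliferation.

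Values were deposited as logarithms whose base is not stated. They were read as log2, and each row had been centred on its median over the 18 arrays. A value of 0 is therefore the middle of the study for that row and not an absence of signal, and neither levels of different genes nor the presence of a cell type can be read from it. A difference is given as KO minus WT in log2 units. Of 33793 rows, the 23521 that carry 1 gene symbol were tested with limma, and a row passed at a Benjamini-Hochberg adjusted p under 0.05. The array medians at 24 h lay between 0.000344 and 0.0107 log2 and the SDs over all rows between 0.137 and 0.199. The 3 KO arrays correlated with each other over all rows at r = 0.459 to 0.475, the 3 WT arrays at r = 0.063 to 0.156. Between KO and WT arrays r was 0.027 to 0.312, and WT replicates 1 and 3 correlated more with each KO array than with any WT array. The number of arrays limits the precision of every value.

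At 24 h, 4 rows passed. Csta3, Clec2l and Slc25a10 were higher in KO epidermis, which is 0.0128% of the rows tested, and Trgv5 was lower, which is 0.00425%. With these 4 included, 1579 rows had an unadjusted p under 0.05. Every KO array lay above every WT array in 6.36% of all rows and below every WT array in 6.53%, and these shares are the background for the counts given for gene groups below. The median difference over all rows was -0.00 log2, and the middle of the distribution lay between -0.07 and 0.06. Differences over 1 log2 were found in 29 of the rows tested, 24 of them higher in KO and 5 lower. Among the 24 higher rows, every KO array lay above every WT array in 23, KO replicate 1 was the highest KO array in 22 and KO replicate 2 the lowest in 23, while WT replicate 3 was the highest WT array in 20.

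Ahr itself had centred values of -0.59, -0.74 and -0.64 in the KO arrays, against -0.01, 0.12 and 0.01 in the WT arrays. The groups did not overlap, but the difference of -0.70 log2 (SE 0.143) did not pass (adjusted p = 0.22 by limma). In the other arrays Ahr differed by -0.32 at 0 h (adjusted p = 0.556) and by -1.11 at 6 h (adjusted p = 0.00549). The row may read parts of the transcript outside the deleted part, so it is only a partial check of the labels.

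Trgv5 fell in KO epidermis and was the only one of 35 measured epidermal T cell markers to pass. This gene, the variable segment of the receptor gamma chain carried by epidermal gamma-delta T cells, lay at -1.82, -1.65 and -2.05 in the KO arrays, against 1.48, 1.20 and 0.71 in the WT arrays. Trgv5 fell by 2.97 log2 (SE 0.294, adjusted p = 0.00122 by limma), a 7.82-fold difference, and passed in each of 16 alternative ways to run the test. In Cd3e, a signalling chain of the receptor complex, the KO arrays held -0.65, -1.06 and -0.77 and the WT arrays 1.06, 0.49 and 0.18. Cd3g, another chain of that complex, held -1.0, -1.62 and -1.43 in KO, against 0.61, 0.65 and -0.08 in WT. Cd7, a surface receptor of T and NK cells, held -0.92, -1.18 and -1.05 in KO, against 1.12, 0.83 and 0.08 in WT. In all 3 genes the groups were apart, with WT replicate 3 closest to the KO arrays, and the differences of -1.40 (SE 0.228, adjusted p = 0.0709), -1.75 (SE 0.322, adjusted p = 0.133) and -1.72 (SE 0.312, adjusted p = 0.122) did not pass. Cd3e and Cd3g passed when the label number class was a block (adjusted p = 0.0373 each). All 3 genes passed when the rows of smallest SD were left out (adjusted p = 0.0122 for Cd3e, 0.02 for Cd3g and 0.0185 for Cd7). A row's SD includes its genotype difference, so that filter was not independent of the test. The calls under it cannot count as further support.

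Smaller differences, with groups that likewise did not overlap and adjusted p above the threshold, were measured in further lymphocyte genes. The receptor adaptor gene Trat1 differed by -0.73 (adjusted p = 0.202), Cd96, a receptor for nectin-like ligands, by -0.67 (adjusted p = 0.187) and the perforin gene Prf1 by -0.67 (adjusted p = 0.238). With the label number class as a block, Trat1 (adjusted p = 0.0266) and Cd96 (adjusted p = 0.00882) passed in limma, in this 1 of 16 alternatives only. Their highest adjusted p over the alternatives was 0.697 and 0.55. That block cannot adjust a difference between arrays of 1 class, so these calls are no further support. Rgs1, a regulator of G protein signalling, differed by -0.60 (adjusted p = 0.226), and Il2rb, the beta chain shared by the interleukin 2 and 15 receptors, by -0.44 (adjusted p = 0.395). Trgv6, a gamma segment of T cells of other tissues, differed by -0.01 with a 95% interval of -0.13 to 0.10. Cd3d, a chain of the same complex as Cd3e and Cd3g, differed by -0.08 with overlapping groups (adjusted p = 0.963). Of the 35 markers, 24 had a negative and 11 a positive difference. In 11 every KO array lay below every WT array (31.4%, against 6.53% of all rows), and in 1, the granzyme gene Gzmc (0.31, adjusted p = 0.863), every KO array lay above. The list's median was -0.06, with -0.03 when KO replicate 1 was left out, and its mean value was -0.25, -0.27 and -0.28 in the KO arrays, against 0.13, 0.12 and -0.00 in the WT arrays. In bulk epidermis, fewer cells of a type and less RNA per cell cannot be told apart.

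**Figure D1:**
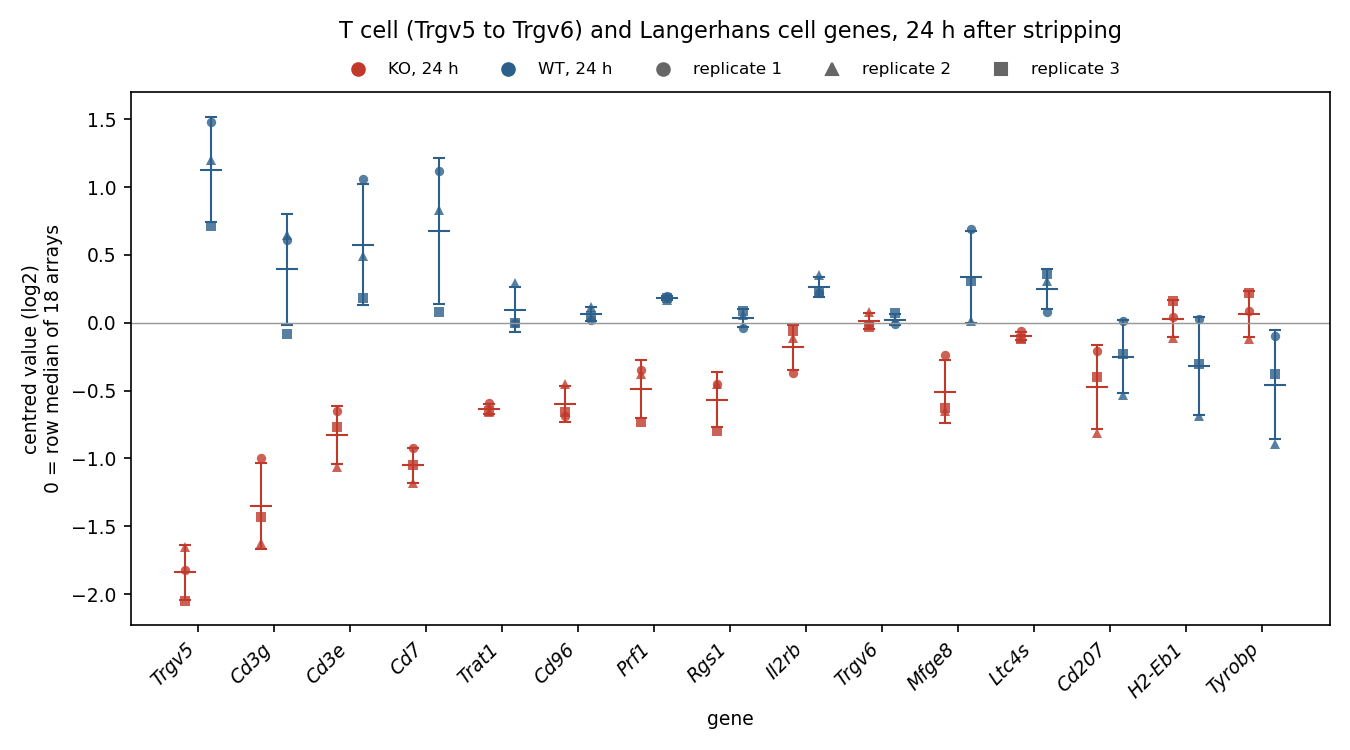
Centred log2 values of T cell and Langerhans cell genes in the 6 arrays of 24 h, with KO left of WT for each gene; symbols mark the replicates, and bars the mean ± SD of 3 arrays. Trgv5, Cd3g, Cd3e and Cd7 have all KO points below all WT points, whereas the groups overlap in Trgv6, Cd207, H2-Eb1 and Tyrobp.

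No Langerhans cell gene passed. Mfge8, which bridges dying cells to phagocytes, lay at -0.24, -0.65 and -0.63 in KO, against 0.69, 0.01 and 0.31 in WT, a difference of -0.84 (adjusted p = 0.407). Before stripping its difference was -2.01. Ltc4s, the synthase of leukotriene C4, differed by -0.35 (adjusted p = 0.289), and Cd207, the langerin gene that defines these cells, by -0.23 with overlapping groups (95% interval -0.67 to 0.22, adjusted p = 0.898). Other markers had differences of the opposite sign, with overlapping groups. Tyrobp, a signalling adaptor of myeloid and NK receptors, differed by 0.52 (95% interval 0.03 to 1.01, adjusted p = 0.725) and the MHC class II gene H2-Eb1 by 0.35 (adjusted p = 0.766). Of 21 markers none passed, 11 had a positive and 10 a negative difference, Mfge8 and Ltc4s lay below WT in every array (9.52%) and none above, and the median was 0.01.

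Skint genes encode butyrophilin-like proteins, of which Skint1 is needed in the thymus for the epidermal gamma-delta T cells to form. At 24 h, 10 of 11 measured members had a negative difference and none passed, with a median of -0.25. Skint8 held -0.26, -0.28 and -0.34 in KO, against 0.01, 0.03 and 0.09 in WT, a difference of -0.33 (adjusted p = 0.734). Skint1 differed by -0.30, Skint5 by -0.25 and Skint9 by -0.34, and in these 4 genes (36.4% of the family) every KO array was below every WT array. At 0 h the family's median difference was 0.49, the opposite sign. None of these 4 genes passed at 0 h (adjusted p = 0.213 to 0.651 in limma). Their change between 0 h and 24 h did not pass either (adjusted p = 0.231 to 0.493). The members are close relatives in sequence, and no source used here says how far their rows read each other's transcripts.

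Csta3 had the largest rise among the rows that passed. Its protein belongs to the stefin A family, small inhibitors of papain-type cysteine proteases such as cathepsins, which in mice form a cluster of closely related genes on chromosome 16. The genes run in the order Csta1, Stfa2l1, Cstdc4, Csta3, Csta2, Stfa1, Cstdc3, Cstdc6, Cstdc5, Stfa2 and Stfa3 in the RefSeq gene table of GRCm38.p6. To show how alike the start regions of these neighbours are, the windows from 250 bases before to 50 bases after the start site (RefSeq, GRCm38.p6) are printed for the 4 members with the largest differences and for Stfa2, whose row did not differ. Each reads 5′ to 3′ along its gene's strand. Capitals mark the longest run of bases common to the first 4 windows.
Csta3, chr16:36210153-36210452, plus strand: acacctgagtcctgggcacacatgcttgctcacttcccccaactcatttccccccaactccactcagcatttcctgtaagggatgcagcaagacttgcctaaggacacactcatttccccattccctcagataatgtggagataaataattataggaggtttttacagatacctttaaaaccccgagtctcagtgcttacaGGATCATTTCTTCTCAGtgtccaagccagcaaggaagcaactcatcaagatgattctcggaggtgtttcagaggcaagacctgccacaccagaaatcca
Stfa2l1, chr16:36156561-36156860, plus strand: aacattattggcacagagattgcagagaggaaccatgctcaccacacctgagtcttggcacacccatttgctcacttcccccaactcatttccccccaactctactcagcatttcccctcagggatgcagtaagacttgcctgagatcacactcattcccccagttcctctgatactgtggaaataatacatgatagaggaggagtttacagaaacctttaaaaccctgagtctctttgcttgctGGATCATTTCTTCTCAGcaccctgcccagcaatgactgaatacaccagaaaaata
Stfa1, chr16:36276898-36277197, plus strand: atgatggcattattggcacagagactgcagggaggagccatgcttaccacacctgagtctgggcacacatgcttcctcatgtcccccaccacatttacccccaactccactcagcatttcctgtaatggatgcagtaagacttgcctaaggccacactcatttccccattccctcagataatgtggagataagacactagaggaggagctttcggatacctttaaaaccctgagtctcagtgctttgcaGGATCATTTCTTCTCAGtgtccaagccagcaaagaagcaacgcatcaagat
Stfa3, chr16:36455343-36455642, minus strand: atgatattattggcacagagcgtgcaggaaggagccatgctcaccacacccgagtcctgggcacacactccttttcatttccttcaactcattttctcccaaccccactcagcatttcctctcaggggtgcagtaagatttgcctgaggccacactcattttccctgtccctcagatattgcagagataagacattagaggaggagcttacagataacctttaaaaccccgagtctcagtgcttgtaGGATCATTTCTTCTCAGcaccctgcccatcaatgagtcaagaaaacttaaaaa
Stfa2, chr16:36408314-36408613, minus strand: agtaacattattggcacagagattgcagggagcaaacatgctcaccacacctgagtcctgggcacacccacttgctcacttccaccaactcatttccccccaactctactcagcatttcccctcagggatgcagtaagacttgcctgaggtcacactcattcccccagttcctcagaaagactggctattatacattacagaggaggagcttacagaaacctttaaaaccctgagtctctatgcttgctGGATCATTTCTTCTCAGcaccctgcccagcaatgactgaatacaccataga

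The shared run, GGATCATTTCTTCTCAG, has 17 bases. Counted from the start site, it begins at -49 in Csta3 and between -5 and -1 in the other 4 windows printed. It was found in 6 of 32544 RefSeq windows of this length, all in this cluster: those 5 and that of Cstdc5. Over the whole window, Stfa2l1 and Stfa2 shared 90.5% of aligned bases, Stfa1 and Stfa3 80.6%, Stfa2l1 and Stfa1 78.8%, and Csta3 was 65.3% identical to Stfa1 and 61.4% to Stfa2l1. The AhR core GCGTG was looked for on both strands and is present in 32.6% of all windows. It was absent from the windows of Csta3, Stfa2l1, Stfa1 and Stfa2 and present once in that of Stfa3, beginning 231 bases before the start site. The AP-1 site TGANTCA, present in 7.79% of all windows, likewise occurred only in that of Stfa3 among the 5. These matches describe letters in a short window and nothing more.

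Csta3 lay at 3.28, 1.58 and 2.80 in the KO arrays, against 0.05, -0.01 and 0.48 in the WT arrays. The difference of 2.38 log2 (SE 0.351, 95% interval 1.63 to 3.13, adjusted p = 0.0393 by limma) is 5.20-fold. Stfa2l1 lay at 2.66, 1.02 and 1.56 in KO, against -0.07, -0.01 and 0.19 in WT, and differed by 1.71 (SE 0.296, adjusted p = 0.09). In both genes the KO arrays were all above the WT arrays, KO replicate 1 was highest and KO replicate 2 lowest. Stfa1 lay at 2.44, 1.52 and 1.78 in KO, against -1.33, 0.31 and 1.01 in WT, and differed by 1.92 (SE 0.612, adjusted p = 0.597). Stfa3 lay at 1.88, 1.50 and 1.50 in KO, against -0.30, 0.66 and 1.0 in WT, and differed by 1.17 (SE 0.394, adjusted p = 0.609). For Stfa1 and Stfa3 the WT arrays spread widely, with replicate 1 lowest and replicate 3 highest, and the groups still did not overlap.

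Among the other neighbours, Cstdc6 lay at 1.70, 0.68 and 0.01 in KO, against -0.10, -0.01 and 0.02 in WT, so that KO replicate 3 fell within the WT range. Stfa2 (-0.01), Cstdc4 (-0.02), Csta2 (-0.04), Cstdc5 (-0.09) and Csta1 (0.13) had differences near 0, and of these only Csta1 had an SE above 0.2. The more distant cystatin Cst7, a gene of cytotoxic lymphocytes, had a difference of -0.39 with every KO array below every WT array (adjusted p = 0.739). Of 19 measured stefins and cystatins, 1 passed, 5 lay above WT in every array (26.3%, against 6.36% of all rows) and 1 below, with a median of 0.03. Of 15 cathepsins and legumain, none passed and the median was 0.11. The 3 that lay above WT in every array were Lgmn (0.46, adjusted p = 0.698), Ctss (0.43, adjusted p = 0.739) and Ctse (0.11, adjusted p = 0.837), of which only Ctss, cathepsin S, is a papain-type protease. For such similar genes, too, it is not stated how far one row reads another's transcript.

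**Figure D2:**
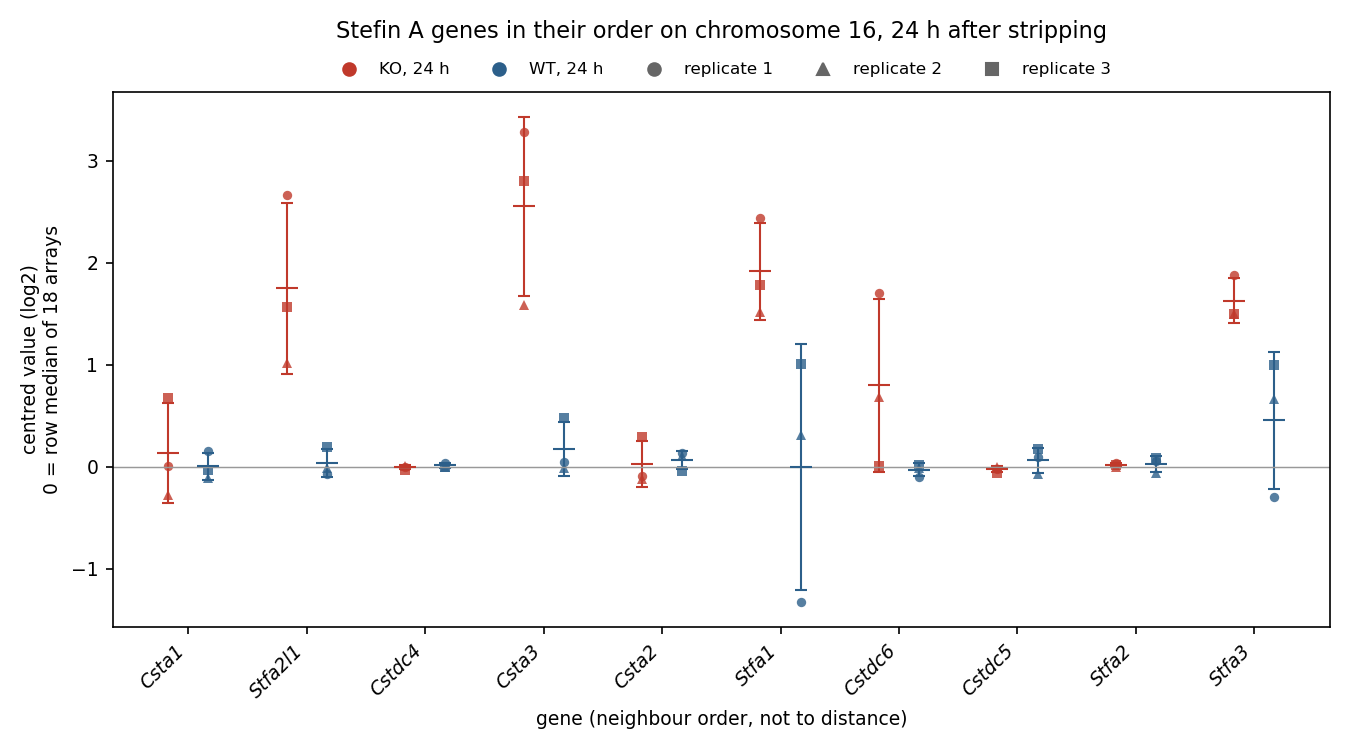
Centred log2 values of the measured stefin A genes in the 6 arrays of 24 h, in neighbour order along chromosome 16, with KO left of WT; symbols mark the replicates and bars the mean ± SD of 3 arrays. Stfa2l1, Csta3, Stfa1 and Stfa3 have all KO points above all WT points, while Cstdc4, Csta2, Cstdc5 and Stfa2 stay near 0 in both groups.

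Slc25a10, the carrier that exchanges dicarboxylates such as malate and succinate for phosphate across the inner mitochondrial membrane, lay at 0.63, 0.63 and 0.60 in the KO arrays, against -0.00, 0.02 and -0.09 in the WT arrays. It rose by 0.64 log2 (SE 0.0902, adjusted p = 0.0393 by limma), which is 1.56-fold. Of the 47 measured members of its carrier family it alone passed, 5 lay above WT in every array (10.6%) and 4 below (8.51%), with a median of 0.02. Slc25a48 differed by 0.58 (adjusted p = 0.305) and the folate carrier gene Slc25a32 by -0.34 (adjusted p = 0.597). Of 26 genes of citrate, malate and fatty acid synthesis, none passed and the median was -0.01.

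Clec2l encodes a C-type lectin-like membrane protein of the CLEC2 family, best known from brain. It lay at 0.72, 0.58 and 0.61 in KO, against -0.00, -0.19 and 0.02 in WT, and rose by 0.69 log2 (SE 0.101, adjusted p = 0.0393 by limma), which is 1.62-fold. The 14 measured CLEC2 lectins and NK receptor partners had a median of -0.03, and none but Clec2l passed. Neither the window of Clec2l nor that of Slc25a10 held GCGTG or TGANTCA. The calls of the 3 higher genes rest on all the arrays. Slc25a10 and Clec2l lost their calls when any 1 of the 6 arrays was left out (adjusted p = 0.0713 to 0.208 and 0.065 to 0.286), and Csta3 kept its call only without KO replicate 2, with adjusted p = 0.065 to 0.286 without any other. With the 6 arrays alone, so that the other 12 lend nothing to the estimate of the spread, none of the 3 passed (adjusted p = 0.345 for Csta3, 0.112 for Slc25a10 and 0.227 for Clec2l), and a second quantile normalisation lowered the difference of Csta3 to 1.37.

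The differences of 2610528A11Rik and Krt6b were the largest in size of the 23521 rows tested, ahead of that of Trgv5, and neither passed. Rows without a gene symbol, described at the end, reached -3.25 and -3.14 and passed when all rows were tested. The unnamed locus 2610528A11Rik, for which the gene table gives the synonym Gpr15l (a chemoattractant peptide of epithelia), lay at 4.30, 2.73 and 3.32 in KO, against -0.59, -0.01 and 1.12 in WT. Its difference of 3.28 log2 (SE 0.535, adjusted p = 0.0709) was 1.72 after a second quantile normalisation. The promoter window of 2610528A11Rik held the AhR core once, beginning at position 29 counted from the start site, and no AP-1 site. Krt6b, a stress keratin, lay at 4.20, 3.43 and 4.18 in KO, against -0.94, 0.87 and 2.53 in WT, a difference of 3.12 (SE 0.794, adjusted p = 0.434). The KO arrays sat close together while the WT arrays spanned over 3 log2.

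The same kind of spread was seen in Krt6a, which lay at 1.87, 1.20 and 1.61 in KO, against -1.54, -0.09 and 0.63 in WT (difference 1.89, adjusted p = 0.684). Krt16, the partner keratin of these 2, lay at 1.81, 1.11 and 1.55 in KO, against -0.51, -0.51 and 0.52 in WT (difference 1.66, adjusted p = 0.543). Krt17, a stress keratin that is also made in hair follicles, differed by 0.03 with overlapping groups. Gsta4, a glutathione transferase that clears products of lipid peroxidation, lay at 3.49, 1.91 and 2.86 in KO, against -0.64, 0.25 and 1.30 in WT (difference 2.45, adjusted p = 0.263). Il1b, the gene of interleukin 1 beta, lay at 0.96, 0.34 and 0.83 in KO, against -0.67, -2.40 and -0.94 in WT (difference 2.04, adjusted p = 0.197). No other member of the interleukin 1 family had a difference over 0.5 in size, and the median of its 19 measured genes was -0.04.

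Cornified envelope proteins of stressed skin had a median of 0.26 over 18 genes, and none passed. Without KO replicate 1 this median was 0.17, below the 0.25 of the interferon response genes without that array, and without KO replicate 2 it was 0.35. Sprr2b, a small proline-rich protein, lay at 1.78, 0.54 and 1.14 in KO, against -0.45, -0.36 and -0.02 in WT (difference 1.43, SE 0.241, adjusted p = 0.0882). Sprr2h differed by 0.74 (adjusted p = 0.187), Sprr2e by 1.61 (adjusted p = 0.543) and the late cornified envelope gene Lce3d by 1.45 (adjusted p = 0.686). In these 4 genes (22.2% of the list) every KO array was above every WT array. A pair of rows that each list several small proline-rich genes, and so stood outside the rows tested by gene name, passed when all rows of the table were tested (1.68 each, adjusted p = 0.024).

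Of 24 stress keratins and alarmins, 10 lay above WT in every array (41.7%, against 6.36% of all rows), none below and none passed, with a median of 0.12. S100a9 and S100a8, which form the alarmin calprotectin, differed by 0.69 (adjusted p = 0.198) and 1.17 (adjusted p = 0.597). The siderophore-binding gene Lcn2 lay at 2.72, 1.0 and 1.40 in KO, against -0.31, 0.10 and 0.35 in WT (difference 1.66, adjusted p = 0.391), and the chitinase-like gene Chil1 differed by 0.78 (adjusted p = 0.504). Beside these, 20 of 23 neutrophil and monocyte markers had a positive difference and 6 lay above WT in every array (26.1%). The list's median was 0.08, and its mean was 0.20, 0.06 and 0.28 in KO, against -0.02, -0.01 and 0.01 in WT. Without S100a8 and S100a9, which keratinocytes also make, 18 of 21 were positive and 4 lay above WT in every array. The median was then 0.075, and the mean 0.124, 0.024 and 0.190 in KO, against -0.017, -0.013 and 0.027 in WT. Cd14, the lipopolysaccharide co-receptor, differed by 0.62, Cxcr2, a chemokine receptor of neutrophils, by 0.51 and Ly6g, which defines mouse neutrophils, by 0.08 with overlapping groups. Which markers are absent cannot be read from centred values, and their part in the alarmin values was not tested.

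**Figure D3:**
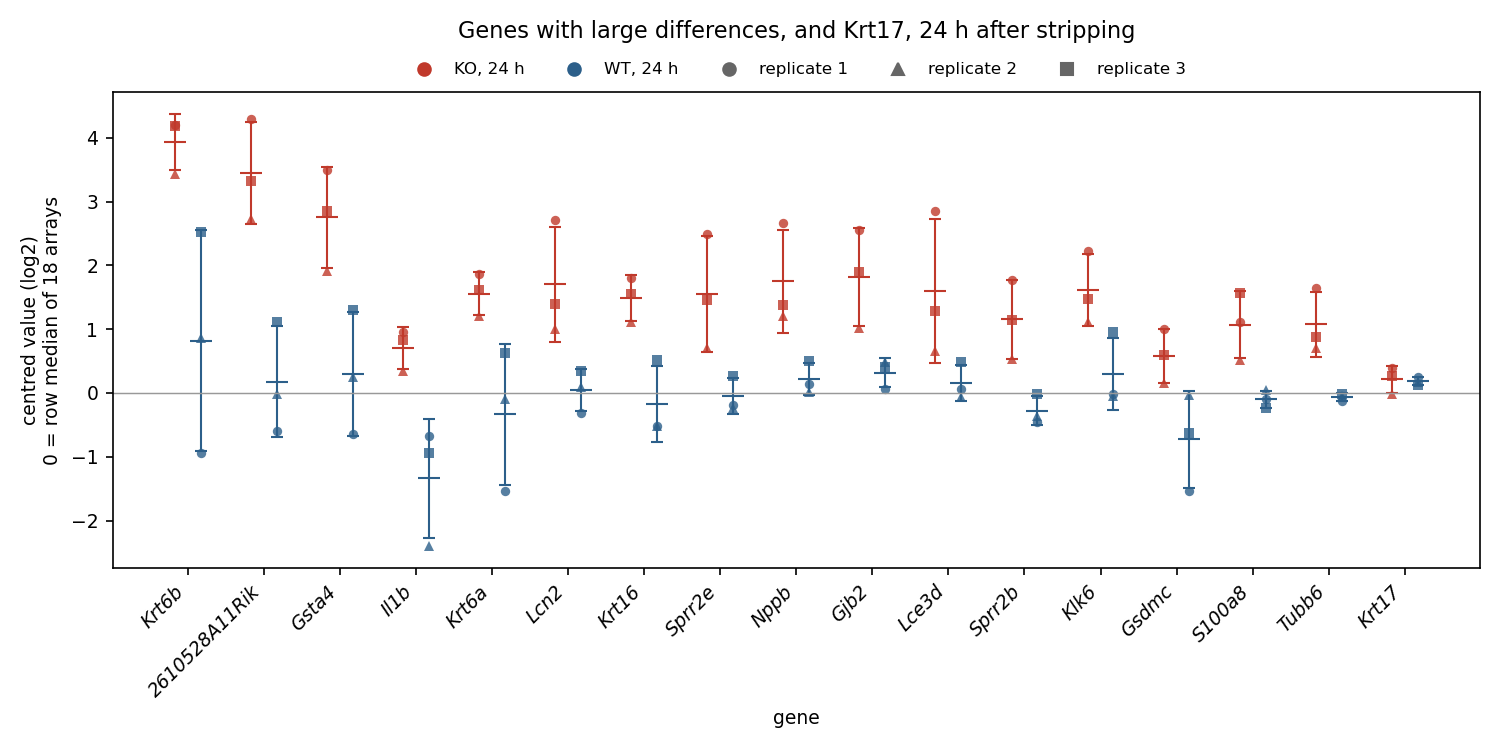
Centred log2 values in the 6 arrays of 24 h of 16 genes with differences over 1 log2, chosen after their values were seen, and of Krt17, with KO left of WT; symbols mark the replicates and bars the mean ± SD of 3 arrays. Every KO array is above every WT array in each gene except Krt17, and WT replicate 3 is the WT array nearest to KO in Krt6b, 2610528A11Rik, Gsta4 and Krt16.

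Further genes with differences over 1 log2 were the connexin 26 gene Gjb2, which lay at 2.55, 1.02 and 1.89 in KO, against 0.06, 0.48 and 0.41 in WT (difference 1.51, adjusted p = 0.443), and the natriuretic peptide gene Nppb (1.53, adjusted p = 0.559). The kallikrein proteases Klk6 and Klk13 differed by 1.31 (adjusted p = 0.597) and 1.03 (adjusted p = 0.326), the pore-forming gasdermin gene Gsdmc by 1.31 (adjusted p = 0.459) and the tubulin gene Tubb6 by 1.14 (adjusted p = 0.256). Plaur, the urokinase receptor, differed by 0.57 (adjusted p = 0.553), and Nrg1, a ligand of ERBB receptors, by 0.94 (adjusted p = 0.594). In each of these 8 genes the groups did not overlap. Of 32 epidermal serpins and proteases, 8 lay above WT in every array (25%) and 1 below, with a median of 0.05.

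Interferon response genes and replication genes had larger shares above WT than all rows, with small differences and none that passed. Of 34 interferon response genes, 11 lay above WT in every array (32.4%) and 1 below, and the median was 0.18. Igtp, an interferon-induced GTPase, lay at 0.20, 0.09 and 0.18 in KO, against -0.76, -0.70 and -0.32 in WT (difference 0.75, adjusted p = 0.442). Zbp1, a sensor of Z-form nucleic acids, differed by 0.46 (adjusted p = 0.289), and the immunoproteasome genes Psmb8 and Psmb9 by 0.52 and 0.41 (adjusted p = 0.597 each). Before stripping, Igtp, Zbp1, Psmb8 and Psmb9 differed by 0.71, 0.29, 0.39 and 0.52, and none passed (adjusted p = 0.209 to 0.531 in limma). The list's median was 0.05 at 0 h. At 24 h it was 0.11 without KO replicate 3 and 0.25 without KO replicate 1. Of 42 replication and mitosis genes, 9 lay above WT in every array (21.4%), none below, and the median was 0.16. Without WT replicate 1 the median was 0.09 and without KO replicate 3 it was 0.25. The list's mean was 0.457, 0.324 and 0.151 in the KO arrays, against 0.0469, 0.159 and 0.192 in the WT arrays, so that KO replicate 3 lay within the WT range. The replicative helicase genes Mcm2 and Mcm3 differed by 0.51 (adjusted p = 0.442) and 0.55 (adjusted p = 0.447), and Mcm10, which helps to start the fork, by 0.36 (adjusted p = 0.597). Cyclin E1 (Ccne1) differed by 0.39, and Mki67, a marker of dividing cells, by -0.03 with overlapping groups.

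Below WT lay Adh7, Cyp17a1 and a part of the late differentiation genes, none of which passed. Adh7, an alcohol dehydrogenase that oxidises retinol, lay at -0.86, -0.57 and -0.28 in KO, against 0.32, 0.47 and 0.22 in WT (difference -0.90, SE 0.158, adjusted p = 0.09). Cyp17a1, the steroid 17-alpha-hydroxylase, differed by -1.05 (adjusted p = 0.299), the kinase gene Sbk1 by -0.39 (adjusted p = 0.09), the actin-associated gene Rai14 by -0.54 (adjusted p = 0.198) and the transglutaminase gene Tgm7 by -0.54 (adjusted p = 0.22). Of 51 late differentiation genes, 10 lay below WT in every array (19.6%, against 6.53% of all rows) and none above, with a median of -0.11. Involucrin (Ivl), a scaffold of the cornified envelope, lay at -0.62, -0.50 and -0.82 in KO, against -0.10, 0.25 and -0.22 in WT (difference -0.62, adjusted p = 0.597). Envoplakin (Evpl), which lies beneath the envelope, differed by -0.21 (adjusted p = 0.688).

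The barrier lipid genes (median -0.11 over 31 genes, 3 below WT in every array and 1 above) and the tight junction and desmosome genes (median -0.08 over 33 genes, 3 below and 2 above) were close to the background shares. By sign, 25 of those 31 and 27 of those 33 genes had a negative difference, while 49.7% of all rows lay above 0. Within these lists, the acid sphingomyelinase gene Smpd1 differed by -0.28 (adjusted p = 0.609 in limma, and -0.09 in its other row). The claudin gene Cldn8 differed by -0.31 (adjusted p = 0.736). Immediate early genes had a median of -0.08 over 32 genes, 25 of them negative, with 3 below WT in every array and 1 above. Egr3 differed by -0.44 (adjusted p = 0.543). Hair follicle genes had a median of -0.22 over 29 genes with 6 below WT in every array (20.7%), among them the stem cell receptor gene Lgr5 (-0.61, adjusted p = 0.588; 0.04 in its other row) and the hair shaft regulator Hoxc13 (-0.36, adjusted p = 0.609). The list's mean was 0.09, 0.03 and 0.03 in the KO arrays, against 0.10, 0.65 and 0.04 in the WT arrays, and the median was -0.00 without WT replicate 2. In the hair keratin gene Krt31 that array lay at 1.41, with the other 5 at or below 0.31.

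**Figure D4:**
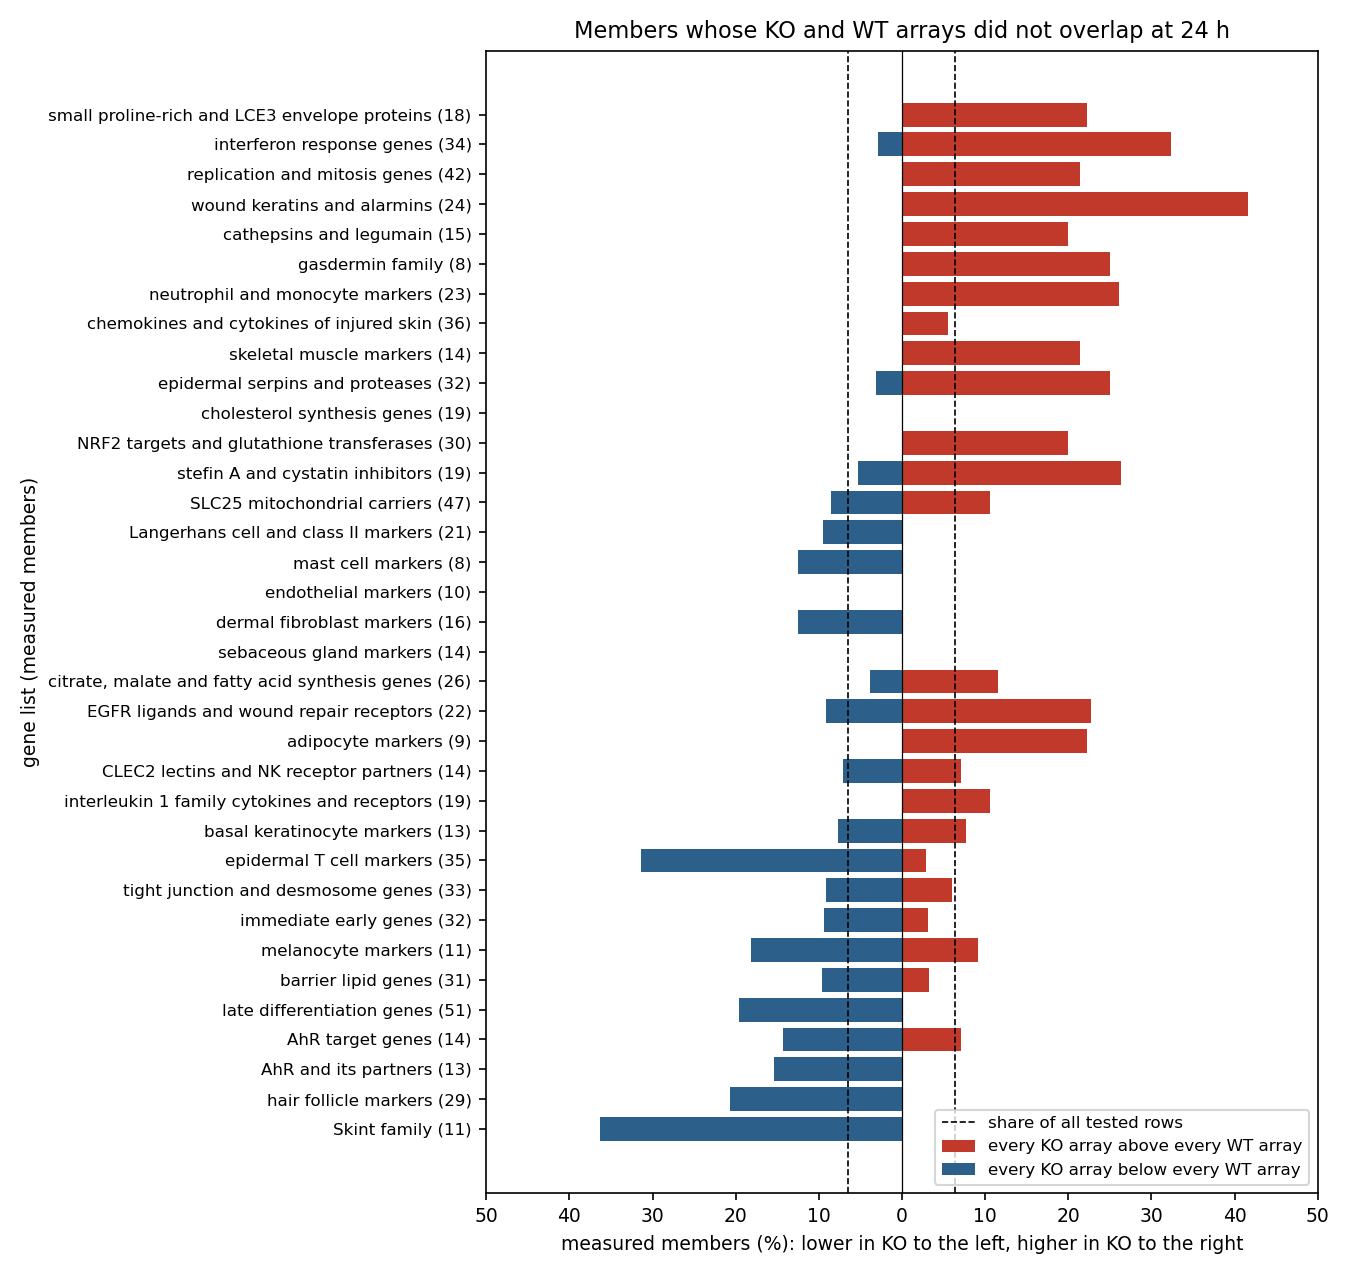
Share of the measured members of each of 35 gene lists (number in brackets) in which every KO array lay above (right, red) or below (left, blue) every WT array at 24 h, in order of the list's median difference. Dashed lines mark the shares of all tested rows, 6.36% and 6.53%; wound keratins and alarmins reach 41.7% higher, the T cell markers 31.4% lower and the Skint family 36.4% lower.

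None of the known targets of AhR passed. The enzymes Cyp1a1 and Cyp1b1, which oxidise AhR ligands, differed by -0.15 (adjusted p = 0.888) and -0.33 (adjusted p = 0.752), and in Cyp1b1 every KO array was below every WT array. Tiparp, which feeds back on AhR by ADP-ribosylation, lay at -0.33, -0.46 and -1.0 in KO, against -0.11, -0.32 and -0.00 in WT (difference -0.45, adjusted p = 0.765), and its other row differed by -0.20. The AhR repressor gene Ahrr differed by 0.01 and Nqo1, a quinone reductase, by -0.01. Slc7a5, a carrier of large amino acids, differed by 0.42 (adjusted p = 0.778). Of 14 measured targets, 11 had a negative and 3 a positive difference, and the median was -0.14. In 2 every KO array lay below every WT array (14.3%, against 6.53% of all rows) and in 1 above (7.14%, against 6.36%). Among the 14 targets, Serpinb2, an inhibitor of plasminogen activators, had values of -5.60, -0.11 and -1.57 in KO, against 0.00, -6.40 and 0.02 in WT, so that single arrays of both groups lay far below the rest. Among the partners, Arnt differed by -0.16 (adjusted p = 0.837) and the clock gene Arntl by -0.58 (adjusted p = 0.641).

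A targeted allele is inherited together with its neighbours, so genes near Ahr were counted apart. Of 156 measured genes within 20 Mb of Ahr, none passed, 7 lay above WT in every array (4.49%) and 14 below (8.97%), and the median difference was -0.03. Markers of tissue below the epidermis were close to 0 in their medians: -0.01 over 16 dermal fibroblast genes, 0.00 over 10 endothelial, 0.06 over 14 muscle and -0.03 over 9 adipocyte genes. Above WT in every array lay 3 muscle genes (21.4%) and 2 adipocyte genes (22.2%), against 6.36% of all rows. Below WT in every array lay 2 fibroblast genes (12.5%, against 6.53%). Of the 14 muscle genes, 11 had a positive difference. Mast cell markers had a median of 0.01 over 8 genes and basal keratinocyte markers of -0.06 over 13.

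Whether the genotype difference at 24 h was another than before stripping or at 6 h was tested as a difference of differences. Against 0 h, 0 of 23521 rows passed in limma (0%), with 2165 at an unadjusted p under 0.05 and a smallest adjusted p of 0.102. Against 6 h, 0 rows passed (0%), with 1575 at an unadjusted p under 0.05 and a smallest adjusted p of 0.411. The 3 times have no array in common. In Trgv5 the difference was -3.11 at 0 h, -2.76 at 6 h and -2.97 at 24 h, and in Cd3e it was -1.61, -1.28 and -1.40. Csta3 differed by -0.16 at 0 h, 0.61 at 6 h and 2.38 at 24 h, Slc25a10 by -0.17, -0.15 and 0.64, and Clec2l by 0.05, -0.05 and 0.69. Their change between 0 h and 24 h was 2.54 (adjusted p = 0.195), 0.82 (adjusted p = 0.102) and 0.64 (adjusted p = 0.219), so no difference between the times can be stated for them.

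Of the 16 plotted genes with differences over 1 log2 at 24 h, 5 passed at 6 h and none at 0 h. Krt6b differed by 3.21 at 6 h (adjusted p = 0.0499), Gsta4 by 2.66 (adjusted p = 0.0231), 2610528A11Rik by 2.20 (adjusted p = 0.0478), Il1b by 1.80 (adjusted p = 0.0346) and Gsdmc by 1.72 (adjusted p = 0.0263). Their differences at 0 h were -0.60, -0.86, 0.42, -0.11 and 0.46. The other 11 genes had differences of -0.07 to 2.64 at 6 h and did not pass (adjusted p = 0.0793 to 0.936). Among these, Krt6a differed by -1.55 at 0 h and 2.64 at 6 h, Krt16 by -1.86 and 1.63, Lcn2 by 0.04 and 1.04, and Sprr2b by 0.45 and -0.07. The replication gene Mcm2 differed by -0.64 at 0 h, 0.49 at 6 h and 0.51 at 24 h. Cd59a, a complement inhibitor that was higher in KO at 0 h (1.07, adjusted p = 0.00241), differed by -0.10 at 24 h, and Fbxo32, a ubiquitin ligase gene, by 0.94 at 0 h, -0.95 at 6 h and -0.29 at 24 h. For Mcm2, Cd59a and Fbxo32 the change between 0 h and 24 h had an adjusted p of 0.102 each.

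**Figure D5:**
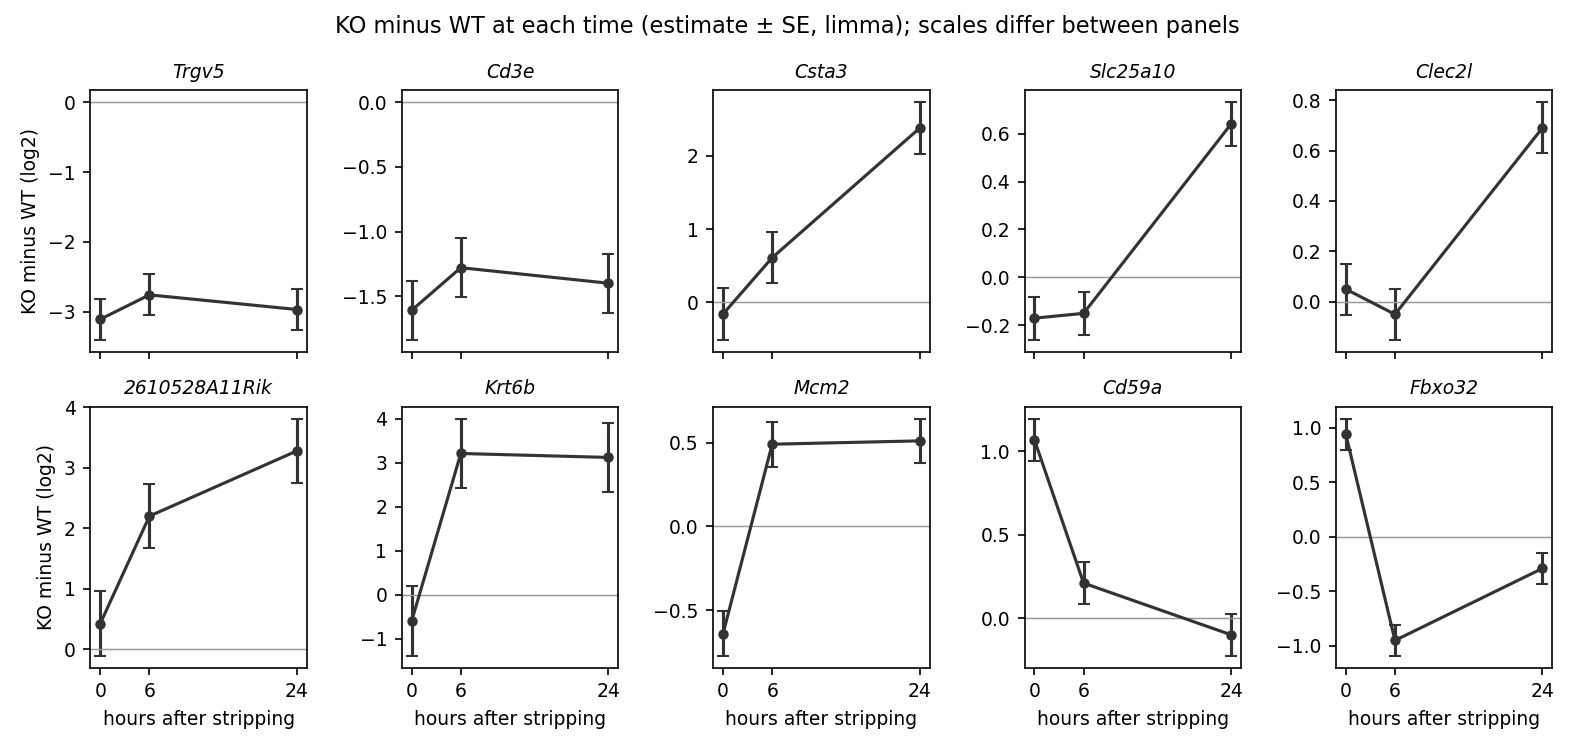
KO minus WT difference in log2 units at 0, 6 and 24 h after stripping for 10 genes, as limma's estimate ± SE (3 KO and 3 WT arrays at each time; vertical scales differ between panels). Trgv5 stays near -3 at all times, Slc25a10 and Clec2l are near 0 at 0 and 6 h, and Krt6b is near 3 from 6 h on.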

How the data were processed

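Per the labels' protocols, total RNA of epidermal sheets was converted to biotin-labelled cDNA for Affymetrix arrays, and RNA integrity was checked. The authors deposited 1 table of 33793 rows by 18 arrays whose values were read as log2, from their range of -6.4 to 4.3. All row medians are 0 within 1e-06, which means that the authors had removed each row's level. A natural log is possible and would scale every difference by the same factor. No source used here gives the background correction, summarisation, normalisation or software. The table held 0 columns of other samples. Without a level, dim rows could not be filtered.

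Rows were named from the platform annotation: 23521 had 1 symbol (22180 genes, 1082 by several rows), 1814 several and 8458 none. A gene with several rows is given by the one that varied most (SD, 18 arrays). Groups came from the sample titles. limma 3.58.1 in R 4.3.3 fitted 6 group means over all 18 arrays (12 residual and 2.76 prior degrees of freedom), so the spread was shared, and p-values were two-sided and adjusted over 23521 rows. An exact permutation test of 3 against 3 arrays cannot go below p = 0.1, so none was run. Each array was taken as 1 animal, since 3 mice per genotype and time are described. A number in the labels, of unstated meaning, was cut at 3000 to form the label number class. The labels do not give this cut, and all 6 arrays of 24 h lie above it.

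The comparison, the 35 gene lists (855 genes, 757 measured) and the rule for named genes were chosen with earlier results of these data known. The rule takes Ahr, rows that passed, the 12 smallest p and 12 largest differences in each direction, the 4 smallest p of each list, all stefins and T cell receptor segments, and the 3 smallest p in each direction of the time tests. 2610528A11Rik, Serpinb2, Il2rb, Cd207, Cyp1a1, Nqo1, Ahrr, Arnt, Krt17, Mki67, Cxcr2, Ly6g, Gzmc, Cd3d and Ctse were added after their values were seen. Promoter windows of 300 bases are from RefSeq and were aligned with Biopython 1.88. Alternatives were the 6 arrays alone, other normalisations, row sets and variance options, array weights, 2 blocks and leaving out each array. Same-numbered KO and WT arrays of 24 h had deviations that correlated at -0.0658, -0.0494 and -0.00734, and the other pairs at -0.0228 to 0.0699. No pairing by number was seen in these values, which does not exclude one.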

Additional observations from a re-analysis of the deposited data

Results flagged for a closer look

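Signal in rows outside those tested by gene name was looked at with all 33793 rows in the test. In that test 7 rows without a single gene symbol passed. In the 5 with no symbol KO was lower, by differences of -3.25 (adjusted p = 0.00803), -3.14 (adjusted p = 4.33e-05), -2.66 (adjusted p = 0.00644), -2.24 (adjusted p = 0.000123) and -0.59 (adjusted p = 0.0356) log2 in limma. The KO arrays of the first lay between -2.36 and -1.91, against 0.57 to 1.50 in the WT arrays, and those of the second between -1.91 and -1.70, against 0.99 to 1.65. The first 4 differed by -2.71 to -3.45 at 0 h and by -2.48 to -3.16 at 6 h, whereas the fifth differed by 0.03 and 0.04. The remaining 2 rows list several symbols each, all of the small proline-rich family, and were higher in KO, by 1.68 and 1.68 (adjusted p = 0.024 each), with KO arrays between 1.10 and 2.03, against -0.50 to 0.50 in the WT arrays. No single gene can be named from these 7 rows.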

How the results depend on the processing

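The count of 4 rows that passed at 24 h became 1 with the 6 arrays of 24 h alone, 12 with all rows of the table, 12 without the rows of smallest SD and 9 with the label number class as a block, and ran from 1 to 6 when 1 array was left out. Where 1 row passed, it was Trgv5. The rows gained with the label number class as a block include Cd3e, Cd3g, Cd96 and Trat1, and those gained without the rows of smallest SD include Cd3e, Cd3g and Cd7. A row's SD includes its genotype difference, so calls and counts under the SD filter are no independent support. All arrays of 24 h are in 1 label number class, so that block leaves their difference unchanged and cannot adjust it. With the replicate number as a block 4 rows passed, and Clec2l lost its call (adjusted p = 0.055) while 2610528A11Rik gained one (adjusted p = 0.0492). For the difference between 24 h and 0 h, 3 rows passed after a second quantile normalisation, 8 without the rows of smallest SD, 9 with array weights and 0 to 2 when 1 array was left out, against 0 otherwise. For that between 24 h and 6 h the count was 0 under every alternative run, the replicate block included. Of the 197 genes covered by the naming rule and the later additions, 74 were followed through 16 alternatives. These 74 kept their sign in each, and 15 passed in at least 1 of them. Genes with differences near 0, such as Trgv6, Cd3d, Krt17 and Mki67, were not followed. The kept signs therefore do not extend to such genes. Limma's trend option was not run, since the rows are centred. The causes of these shifts were not tested. Leaving out single arrays was also applied to the list medians, an alternative chosen after seeing the data. The number of arrays and the loss of signal over background limit what can be detected.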
